A study of Homo sapiens with 2 samples.

Results

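The mitosis genes examined here are 52 genes whose transcripts are known to peak in G2 and M phase. All 52 were found by symbol among the 32738 genes of the count matrix, and their transcripts were followed across marker-defined groups of cells and across hashtags. The cells were nonadherent cells collected on day 5 of the endothelial-to-hematopoietic transition (EHT), in which CD34+ cells derived from the human induced pluripotent stem cell line IPS11 were cultured in EHT medium on plates that were left uncoated or were coated with VCAM1, with DLL4 or with DLL4+VCAM1. Replicate wells of a coating were combined, stained with 1 of 4 hashtag antibodies (0252 to 0255) and captured together as 1 droplet library, so there are no replicates and no test between groups of cells can be made. No source used here ties a hashtag to a coating, and hashtags are therefore compared by number only. Of 10836 barcodes, 7550 cells carried a call for 1 hashtag and had at most 36000 unique molecular identifiers (UMIs), 6000 genes and 18% of UMIs from mitochondrial genes. These cells held 142110950 UMIs, with a median of 18319 per cell.

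Entry into mitosis is driven by the kinase CDK1 with B-type cyclins, after which condensin and topoisomerase compact the chromosomes, the spindle attaches to kinetochores, the anaphase-promoting ubiquitin ligase releases sister chromatids and the cell is cleaved by cytokinesis. Most genes for this machinery are silenced in G1 and transcribed together from late S phase onward. Blood progenitors are known to expand by repeated division before their final maturation.

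The shared control of such genes is known to involve the cell cycle genes homology region (CHR), a short element bound by the MuvB core of the DREAM and MYB-MuvB complexes, and CCAAT boxes bound by NF-Y. RefSeq promoter windows from 250 bases before to 50 bases after the transcription start (build GRCh38.p14) were at hand for 44 of the 52 members, in 55 windows. UBE2C, HMGB2, TTK, ANP32E, AURKA, BIRC5, TPX2 and CDCA2 had none in the table. Of the 55 windows, 35 held the CHR letters TTTGAA on either strand (63.6%), whereas 15.2% of all 35116 windows in the table did. Within 50 bases of the start, the share was 45.5% for the members and 4.62% for all windows. The rarer form TTCGAA was present in 3 of the 55 windows (5.45%, against 1.45% of all windows). CCAAT was present on either strand in 37 windows (67.3%, against 34.6%), and 27 windows held it together with TTTGAA (49.1%, against 5.90%). Altered letters searched as controls gave 3.64% against 7.71% for TATGAA and 38.2% against 21.8% for CCTAT. The CCAAT control was thus also more frequent in the members' windows, by fewer percentage points than CCAAT itself but by a similar factor. The CHR control was less frequent there. In 55 windows of G2/M genes outside the 52, CCAAT was present in 63.6%, its control in 16.4% and TTTGAA in 50.9%. In 42 windows of S-phase genes, TTTGAA was present in 4 (9.52%) and CCAAT in 28 (66.7%), so that the CHR letters, and not CCAAT, set the mitosis windows apart from those of S-phase genes in count. A match of letters is a description of the sequence and not of binding.

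Shown first are the windows of CDK1 (chr10:60778228-60778527, plus strand), CDC20 (chr1:43358731-43359030, plus strand), CCNB2 (chr15:59104896-59105195, plus strand) and CDC25C (chr5:138331828-138332127, minus strand), as 4 entry and exit regulators with both letter patterns. CDK1 has 2 windows in the table and CDC25C has 4, of which the one with the most matches is shown. Windows of ANLN (chr7:36389612-36389911, plus strand), LBR (chr1:225428772-225429071, minus strand) and GAS2L3 (chr12:100593368-100593667, plus strand) follow. These are the 3 members that differed at least 2-fold in a marker gate described below, the collagen, ELANE and PF4/PPBP gates aside. All windows are written 5′ to 3′ along the gene's own strand, and capitals mark the CHR letters, in either form, and the CCAAT box on either strand.
CDK1: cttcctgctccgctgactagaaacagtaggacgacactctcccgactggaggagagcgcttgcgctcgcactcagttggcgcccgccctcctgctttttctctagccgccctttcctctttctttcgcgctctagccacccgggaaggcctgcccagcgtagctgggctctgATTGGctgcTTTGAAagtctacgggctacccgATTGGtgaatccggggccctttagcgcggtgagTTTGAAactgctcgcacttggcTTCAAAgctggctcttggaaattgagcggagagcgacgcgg
CDC20: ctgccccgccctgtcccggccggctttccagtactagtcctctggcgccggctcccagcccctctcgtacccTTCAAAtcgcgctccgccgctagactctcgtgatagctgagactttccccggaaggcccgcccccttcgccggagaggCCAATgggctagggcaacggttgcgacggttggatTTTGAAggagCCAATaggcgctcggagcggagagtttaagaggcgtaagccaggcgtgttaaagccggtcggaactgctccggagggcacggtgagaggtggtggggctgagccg
CCNB2: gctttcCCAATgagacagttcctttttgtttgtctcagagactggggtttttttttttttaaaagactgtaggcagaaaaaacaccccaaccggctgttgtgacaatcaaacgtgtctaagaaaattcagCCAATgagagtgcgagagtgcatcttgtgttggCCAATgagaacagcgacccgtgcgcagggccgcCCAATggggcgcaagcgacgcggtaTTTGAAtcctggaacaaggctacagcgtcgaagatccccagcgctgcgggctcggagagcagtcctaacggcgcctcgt
CDC25C: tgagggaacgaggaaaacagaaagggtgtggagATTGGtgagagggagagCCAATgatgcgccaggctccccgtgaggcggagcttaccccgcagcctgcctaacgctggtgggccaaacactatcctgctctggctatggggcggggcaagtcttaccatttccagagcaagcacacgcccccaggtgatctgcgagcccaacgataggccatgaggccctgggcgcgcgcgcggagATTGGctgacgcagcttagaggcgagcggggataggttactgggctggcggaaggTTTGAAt
ANLN: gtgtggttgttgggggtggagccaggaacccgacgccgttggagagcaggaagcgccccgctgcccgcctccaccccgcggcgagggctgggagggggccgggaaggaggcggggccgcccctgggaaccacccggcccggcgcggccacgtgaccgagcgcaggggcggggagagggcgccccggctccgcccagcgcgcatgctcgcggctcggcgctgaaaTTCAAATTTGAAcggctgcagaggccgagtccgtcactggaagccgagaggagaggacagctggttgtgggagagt
LBR: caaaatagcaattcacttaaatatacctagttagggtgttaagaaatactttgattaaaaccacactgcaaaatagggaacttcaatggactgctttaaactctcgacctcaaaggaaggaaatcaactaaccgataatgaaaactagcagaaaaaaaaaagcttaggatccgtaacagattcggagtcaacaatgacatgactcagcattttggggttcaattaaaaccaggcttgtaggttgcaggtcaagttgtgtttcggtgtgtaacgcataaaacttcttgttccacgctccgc
GAS2L3: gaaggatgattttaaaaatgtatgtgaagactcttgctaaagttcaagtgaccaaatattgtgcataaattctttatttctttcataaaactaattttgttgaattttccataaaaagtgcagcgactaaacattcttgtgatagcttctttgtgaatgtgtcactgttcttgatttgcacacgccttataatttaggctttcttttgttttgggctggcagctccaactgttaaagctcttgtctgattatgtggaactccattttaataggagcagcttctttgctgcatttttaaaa
In the ANLN window, a copy of TTTGAA on each strand stands back to back, beginning 26 and 20 bases before the start. The windows of LBR and GAS2L3 held neither form of the CHR letters and no CCAAT box, which says nothing about other factors there. The GAS2L3 window is the only 1 of that gene in the table. Judged by the shift between builds at TMPO on the same chromosome, it lies inside the gene and not at the gene's annotated start. Letters at that start were not searched.

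In the 7550 cells, the members together had 801298 UMIs. This corresponds to 5639 counts per 1000000 UMIs (CPM, 95% Poisson interval 5626 to 5651), or 0.564% of all transcripts counted. Intervals here and below cover counting error only. In comparison, 40 S-phase genes had 3091 CPM in the same cells. The library counts 3′ ends, so levels of different genes are compared as transcript molecules and were not divided by gene length. Of the members, 40 are known to be low outside S, G2 and M phase (the core members) and made up 3322 CPM. The other 12 (HMGB2, CKS1B, TMPO, SMC4, ANP32E, TUBB4B, RANGAP1, NCAPD2, LBR, CKAP5, CTCF and CBX5) serve cells in other phases too, and made up 2316 CPM.

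By role, the largest part came from 9 genes of chromosome structure and chromatin, with 30.3% of the members' UMIs. HMGB2, a chromatin-bending protein, had 504 CPM (500 to 507) and TOP2A, the topoisomerase that untangles sister chromatids, had 295 CPM (293 to 298), and this group also holds MKI67, SMC4, ANP32E, NCAPD2, CDCA2, CTCF and CBX5. The 14 spindle genes had 24.6%, led by the β-tubulin TUBB4B at 518 CPM (515 to 522) and the spindle assembly factor TPX2 at 200.2 CPM, and including NUSAP1, TACC3, CKAP2, CKAP2L, KIF11, KIF2C, RANGAP1, DLGAP5, HMMR, PSRC1, CKAP5 and GAS2L3. Entry kinase, cyclin and partner genes (CDK1, CCNB2, CKS1B, CKS2, CDC25C, GTSE1 and G2E3) had 13.0%, led by the CDK-binding subunits CKS2 at 235 CPM and CKS1B at 231 CPM. Kinetochore and centromere genes (CENPF, CENPE, CENPA, NDC80, NUF2 and HJURP) had 9.55%, led by CENPF at 293 CPM and the motor CENPE at 94.7 CPM.

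The 3 genes grouped with the anaphase ubiquitin ligase had 8.09%. These are UBE2C, its ubiquitin-conjugating enzyme, at 268 CPM, CDC20, its activator, at 137 CPM, and CDCA3, one of its substrates, at 51.4 CPM. The other mitotic kinases and the chromosomal passenger complex (AURKA, AURKB, BIRC5, CDCA8, TTK, BUB1 and NEK2) had 7.55%, led by the passenger subunit BIRC5 at 132 CPM and its kinase AURKB at 91.0 CPM. The nuclear envelope proteins TMPO, at 170 CPM, and LBR, the lamin B receptor, at 75.1 CPM, made up 4.34%. The cytokinesis genes KIF20B, KIF23, ECT2 and ANLN made up 2.67%, with KIF20B at 94.3 CPM and the midbody motor KIF23 at 26.2 CPM. Core members ranged from 6.89 CPM for GAS2L3, a linker of actin and microtubules, to TOP2A, and all 52 passed the minimum of 5 CPM applied to the comparisons. Counts of CKS1B are those of its gene on chromosome 1. A second feature of the same symbol, with 1 UMI, was not used.

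To count cells rather than transcripts, each cell was reduced at random to 5000 UMIs, which left out 68 shallower cells, and was called G2/M-high if at least 8 of the 40 core members still had a UMI. Of 7482 cells, 4072 were G2/M-high (54.4%, exact binomial interval 53.3 to 55.6%). The call is a point on a continuous range and does not separate G2 from M or from late S phase. The cells just outside it, with 7 core members, numbered 385, those just inside, with 8, numbered 399, and together they were 10.5% of cells. At least 12 core members were present in 36.0% of cells and at least 16 in 20.4%. The share thus depends on the point chosen. The comparisons between groups below use the same point throughout, but their order also depends on it, so shares at 12 and 16 are given beside them.

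Across the range of core members present, the members and the S-phase genes followed different courses. Summed member CPM was 1429 in the 1798 cells with 0 to 3 core members, 3164 with 4 to 7, 4989 with 8 to 11, 7138 with 12 to 15 and 10435 in the 1526 cells with 16 or more. This increase is fixed by the rule for core members, of which 38 of 40 rose at every step. The exceptions were PSRC1 and GAS2L3, which were lower with 4 to 7 than with 0 to 3. All 12 broad members also rose at every step, and the share of all genes that did so was not counted. S-phase genes, which the rule did not use, had 1505, 3357, 3907, 3611 and 3127 CPM over the same ranges. They were highest with 8 to 11 core members and then fell while the members went on rising.

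**Figure D1:**
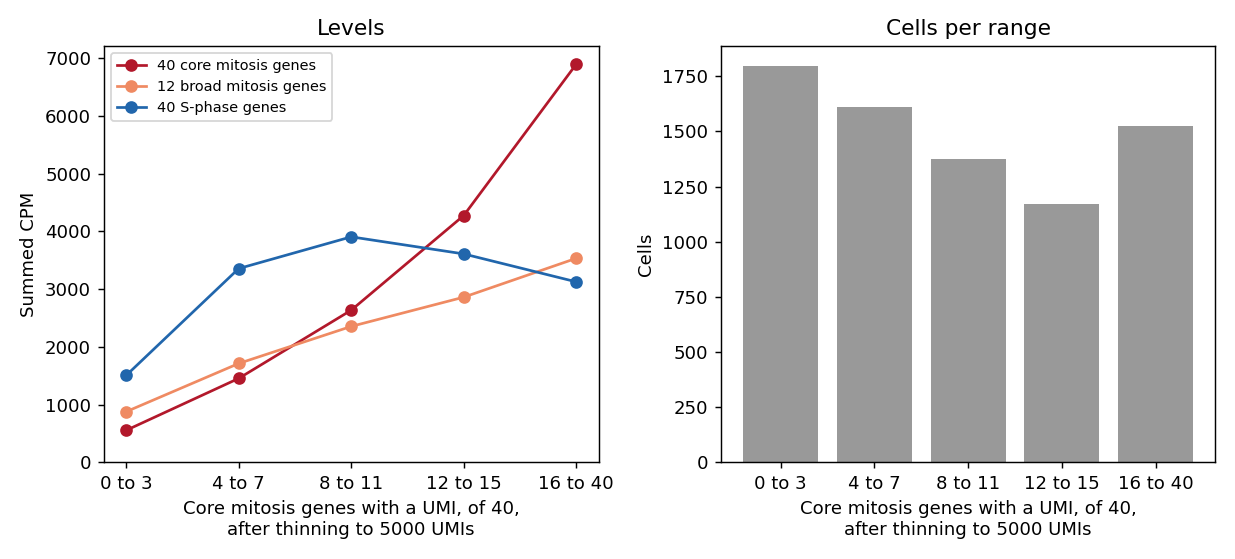
Left, summed CPM of the 40 core members, the 12 broad members and the 40 S-phase genes (y axis) in cells grouped by how many of the 40 core members had a UMI after thinning to 5000 UMIs (x axis). Right, the number of cells in each range. Core members rose from 553 to 6900 CPM, whereas S-phase genes were highest, at 3907 CPM, in cells with 8 to 11 core members.

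Compared with the other 3410 cells, the G2/M-high cells had higher levels of all members, and 47 of 52 were at least 2-fold higher, against 1.74% of 9737 genes tested (1.04% were at least 2-fold lower). Since members chose these cells, the count describes the call and supports nothing else, although each core member was left out of the rule when its own ratio was taken. Core members differed by a median of 4.87-fold (2.00-fold for CKAP2 to 8.02-fold for CKAP2L) and broad members by 2.09-fold (1.45-fold for ANP32E to 3.04-fold for HMGB2). By role, kinetochore genes had the highest median ratio, 6.16-fold, and the 2 nuclear envelope genes the lowest, 1.90-fold. GTSE1 was 7.60-fold higher, KIF23, which is needed for the midbody, 7.82-fold and TOP2A 7.54-fold. The members just inside the 2-fold limit were CKAP2 at 2.00 and RANGAP1 at 2.07, and those just outside it were NCAPD2 at 1.93 and LBR at 1.69.

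Genes outside the 52 followed the same division. The 10 of at least 20 CPM with the highest ratios in G2/M-high cells were PIF1, KIF20A, PLK1, ASPM, DEPDC1, KIFC1, KIF14, SPC25, INCENP and BUB1B. PIF1, a DNA helicase, had 52.7 CPM in G2/M-high cells and 3.37 CPM in the others (15.7-fold, interval 13.5 to 18.2). The kinesin KIF20A differed by 8.18-fold and the kinase PLK1 by 7.24-fold. Of 56 other G2/M genes, 44 were at least 2-fold higher and none was 2-fold lower, with a median log2 ratio of 1.77 beside 0.065 over all genes. Of 40 S-phase genes, 3 were at least 2-fold higher, which were RAD51AP1 (2.35-fold), RRM2 (2.29-fold) and E2F8 (2.27-fold). Of non-members with at least 20 CPM, those with the lowest ratios were ACTC1 (0.225), PPBP (0.281), C1QA (0.284), MXD4 (0.299), C1QB (0.327), TAGLN (0.333), C1QC (0.343), GJA4 (0.356), HBD (0.386) and THBS1 (0.401). They include markers of macrophages (C1Q), platelets (PPBP) and red cells (HBD), and MXD4, a repressor that opposes MYC. Of less abundant genes on the lists of other phases, CCND1, a G1 cyclin, had a ratio of 0.315 and the kinase inhibitor CDKN1A a ratio of 0.366. CDKN1C, another kinase inhibitor, had 98.2 CPM in G2/M-high cells and 196 CPM in the others (0.500-fold). These are the lowest of their lists among genes tested, and the lists as a whole were near level. The median log2 ratio was -0.11 for 8 G1 cyclins and kinases, with CDK2 highest at 1.55-fold. It was 0.071 for 7 kinase inhibitors and pocket proteins, with RBL1 highest at 1.72-fold.

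G2/M-high cells were also deeper. Their median was 20899 UMIs before thinning, against 16102 in the other cells (1.30-fold, and 1.24-fold to 1.38-fold in each of the 4 hashtags), and their median mitochondrial share was 12.5% against 14.1%. From the shallowest to the deepest quintile of cells, the G2/M-high share was 30.4, 41.1, 49.7, 67.4 and 83.5%, although every cell had been thinned to the same depth. From the lowest to the highest quintile of mitochondrial share, it was 69.4, 67.9, 62.6, 46.4 and 25.8%. Depth and mitochondrial share thus moved with the members, so shares within quintiles of depth are given below. Free RNA in the droplets can also add UMIs of any gene to a cell, and its part was not tested. Collagen cells were the exception among the gates, with 0.833 times as many UMIs in their G2/M-high cells as in their others.

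Cells were then grouped by the marker genes of the blood lineages and given no cell type name beyond them. Gates were set on UMIs per 10000 of a cell, at 5 for collagen genes, 20 for globin genes, 10 for PF4 and PPBP, 10 for S100A8 and S100A9, 5 for ELANE, 5 for C1Q genes and 2 for SPINK2. The CD34/GATA2 gate required a UMI of each of these genes and none of the other gates. This gave 2374 CD34/GATA2 cells, 728 SPINK2 cells, 623 C1Q cells, 479 S100A8 cells, 287 globin cells and 91 collagen cells, as well as 22 ELANE cells and 7 PF4/PPBP cells, 162 cells in several gates and 2777 in none. Gate markers were separated to different degrees. Globin genes had 16823 CPM in the globin gate and 31.8 to 187 CPM in the CD34/GATA2, SPINK2, C1Q, S100A8 and collagen gates, and C1Q genes had 2176 CPM in the C1Q gate and 4.57 to 72.3 CPM in the other 5. CD34 and GATA2 were shared, with 432 CPM in their own gate, 267 CPM in the globin gate and 241 CPM in the SPINK2 gate.

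The members were highest in the S100A8 and SPINK2 gates and lowest in the collagen gate. S100A8 cells, which carry the calprotectin genes of neutrophils, had 6350 member CPM (6293 to 6408). SPINK2 cells, which carry a protease inhibitor gene of early progenitors, had 6246 (6206 to 6287). These were 1.13-fold and 1.12-fold the level of all other cells. CD34/GATA2 cells were close to the pool, with 5578 member CPM (ratio 0.984). Globin cells had 4935 (0.870), C1Q cells 4643 (0.814) and collagen cells 3201 (0.565, interval 0.549 to 0.582). With a limit of 10% mitochondrial UMIs in place of 18%, the log2 ratio of CD34/GATA2 cells turned from -0.024 to 0.20, and those of C1Q and globin cells went from -0.30 to -0.73 and from -0.20 to -0.66. That limit kept only a small part of the cells, since the lowest quintile of mitochondrial share already had a median of 10.1%. It also cut the gates unequally, as their median share was 9.93% in collagen and 10.5% in S100A8 cells but 13.9% in CD34/GATA2 cells. Without hashtag 0252 the log2 ratio of globin cells was -0.094. The G2/M-high share was 65.0% in SPINK2 cells (61.4 to 68.5%), 59.7% in S100A8 cells (55.1 to 64.1%), 54.4% in CD34/GATA2 cells (52.4 to 56.4%), 44.8% in globin cells (38.9 to 50.7%), 40.2% in collagen cells (29.6 to 51.7%) and 33.3% in C1Q cells (29.5 to 37.2%). Cells in no gate had 58.5%. The 162 cells in several gates had 28.6%. Of neighbors in this order of the 6 gates, CD34/GATA2 and globin cells had counting intervals that did not overlap, and all other neighbors had overlapping ones. For S100A8, SPINK2, CD34/GATA2, globin, C1Q and collagen cells, at least 12 core members were present in 42.9, 40.9, 37.3, 32.9, 25.2 and 17.1%. At least 16 were present in 26.1, 24.5, 20.5, 18.5, 17.7 and 8.54%, in the same order. S100A8 cells then came before SPINK2 cells, and C1Q cells before collagen cells. By scanpy's phase call, which also uses S-phase genes, G2M cells made up 50.7% of S100A8, 49.2% of SPINK2 and 41.8% of CD34/GATA2 cells. They made up 38.5% of globin, 35.4% of collagen and 31.5% of C1Q cells. SPINK2 cells had the highest S share of the 6 gates, 42.3%.

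**Figure D2:**
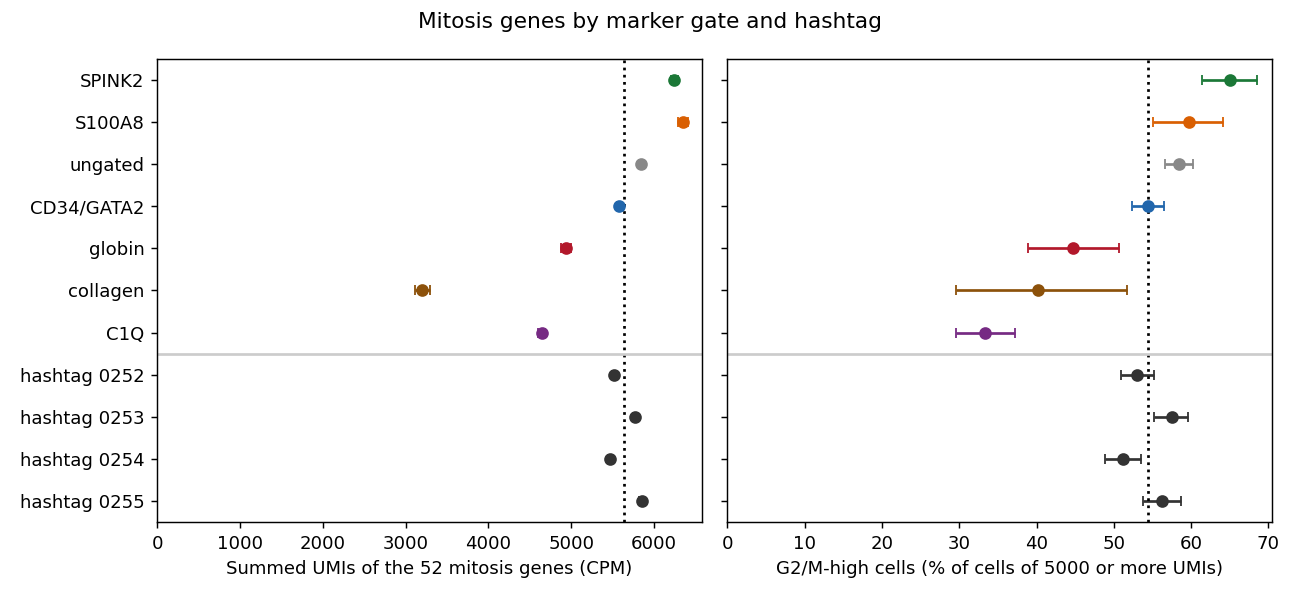
Summed CPM of the 52 mitosis genes (left) and the share of G2/M-high cells (right) for 6 marker gates, for ungated cells and for the 4 hashtags, with 95% counting intervals. Dotted lines mark all kept cells (5639 CPM and 54.4%). Shares run from 33.3% in C1Q cells to 65.0% in SPINK2 cells, and from 51.2 to 57.5% between hashtags.

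The order of the gates changed with depth. When each gate's share was weighted to equal quintiles of UMIs, S100A8 cells came first with 68.8%, followed by SPINK2 with 62.5%, C1Q with 50.3%, CD34/GATA2 with 47.7%, globin with 45.2% and collagen with 37.5%. C1Q cells were shallow, with a median of 12669 UMIs, and 334 of 610 lay in the shallowest quintile, where 20.1% were G2/M-high. In the 3 deeper quintiles their shares were 62.7, 71.1 and 67.6% of 67, 45 and 34 cells, against 49.7, 67.4 and 83.5% for all cells. The place of C1Q cells in the weighted order rests largely on these small counts, and weighted shares have no interval here. In SPINK2 cells the share was above that of all cells in every quintile (42.2 to 92.2%), and in CD34/GATA2 cells it was below it in the 4 shallower quintiles. Collagen cells showed no increase with depth, with 48.3% in the shallowest quintile and 33.3% in the deepest, where there were 12 cells.

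**Figure D3:**
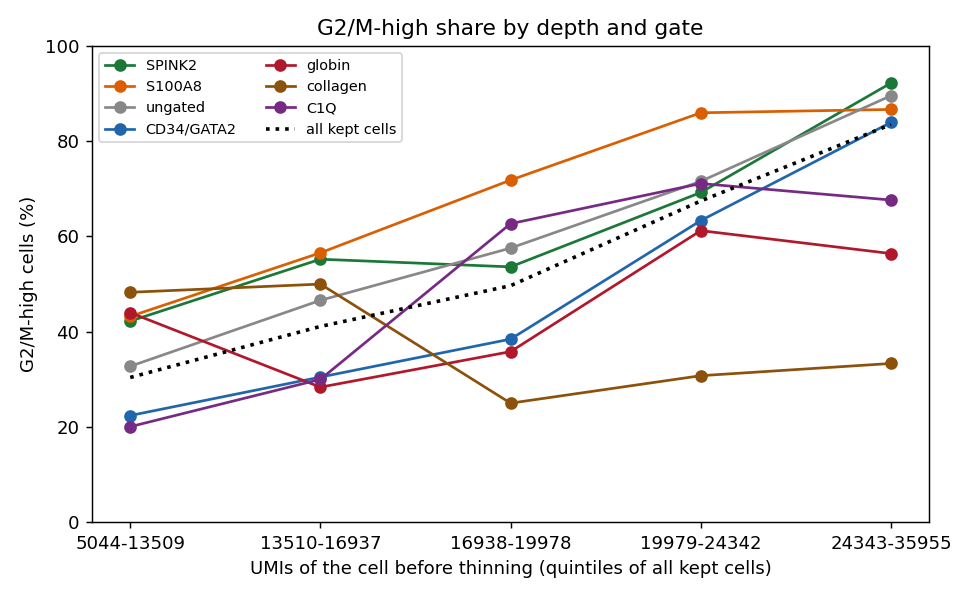
Share of G2/M-high cells (y axis) in quintiles of the UMIs that a cell had before thinning (x axis), for each marker gate and for all kept cells (dotted). The share of all cells rose from 30.4 to 83.5%, and C1Q cells went from 20.1% in the shallowest quintile to 71.1% in the next to deepest.

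C1Q cells differed in the spread of the members rather than in their level alone. A median of 3 core members was present in them after thinning, against 8 in all cells, yet 17.7% had at least 16 (14.8 to 21.0%), close to the 20.4% of all cells. Among G2/M-high cells alone, the median log2 ratio of the 52 members was 0.33 for C1Q cells, 0.083 for S100A8 cells, 0.045 for globin cells and -0.036 for SPINK2 cells, -0.010 for CD34/GATA2 cells and -0.50 for the 33 collagen cells. The core members among them also entered the call of these cells. S-phase genes were also low in C1Q cells, at 1927 CPM against 3091 CPM in all cells. They were lower still in collagen cells (1312 CPM), also low in globin cells (2447 CPM) and highest in SPINK2 cells (3662 CPM).

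ELANE and PF4/PPBP gates held too few cells for a level of single members. In the ELANE gate 8 of 21 cells were G2/M-high (38.1%, 18.1 to 61.6%) and in the PF4/PPBP gate 3 of 7 (42.9%, 9.90 to 81.6%). Without the other gates, 85 cells passed the ELANE limit and 44.6% were G2/M-high (33.7 to 55.9%). The PF4/PPBP limit was passed by 80 cells, of which 73 also passed the globin limit, and 24.7% were G2/M-high (15.6 to 35.8%).

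In the CD34/GATA2, SPINK2, C1Q, S100A8 and globin gates, members passed 2-fold no more often than all genes tested did, so these counts do not set them apart. With a limit of 2-fold against all other cells, 1 member was lower and none was higher in the CD34/GATA2 gate, where 4.54% of all genes tested were lower and 1.36% higher. No member passed in the SPINK2 gate (0.38% of genes higher, 4.38% lower), 1 was higher in the C1Q gate (6.17% higher, 9.29% lower), 2 were higher in the S100A8 gate (4.98% higher, 5.55% lower) and 2 were lower in the globin gate (3.49% higher, 8.84% lower). In the collagen gate 19 of 52 members were lower, which is 36.5%, against 15.8% of genes tested (8.84% were higher). There 51 of 52 were below the other cells, while 37.7% of all genes tested were above them. The median log2 ratio was -0.83 for the members there and -0.22 for all genes. It was 0.19 and 0.050 in the S100A8 gate, 0.17 and 0.016 in the SPINK2 gate, -0.27 and -0.16 in the C1Q gate, -0.28 and -0.18 in the globin gate, and -0.019 and -0.0098 in the CD34/GATA2 gate.

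In the S100A8 gate 43 members were above the other cells and 9 were below, while 54.1% of all genes tested were above. In the SPINK2 gate the counts were again 43 and 9, while 52.5% of all genes tested were above. The members furthest from the sum were CDCA3, which triggers entry into mitosis, at 64.1 CPM (1.28-fold) and CDCA2, a phosphatase-targeting chromatin protein, at 40.7 CPM (1.28-fold) on the high side, and ANLN (0.933-fold) and ECT2, an activator of the cleavage furrow, at 15.1 CPM (0.943-fold) on the low side. In the CD34/GATA2 gate CKAP2 (1.17-fold) and CKS2 (1.14-fold) were highest. In the collagen gate CDCA2 had 11.6 CPM against 33.0 CPM (0.351-fold) and CENPA, the centromeric histone, 14.5 CPM against 38.1 CPM (0.379-fold). At the other end were ANLN, with 22 UMIs and a ratio of 1.11 (0.694 to 1.68), and ECT2 with 21 UMIs and 0.951 (0.587 to 1.46).

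**Figure D4:**
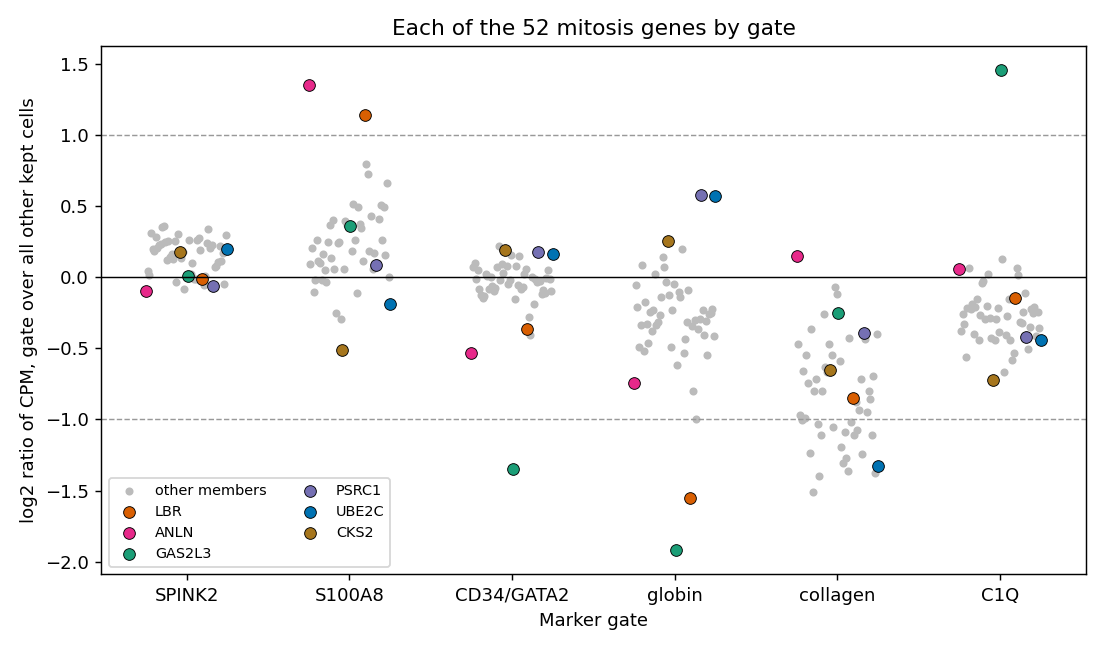
Each of the 52 mitosis genes as the log2 ratio of its CPM in a marker gate over all other kept cells (y axis), by gate (x axis), with 6 genes named in color. Dashed lines mark 2-fold. LBR and ANLN lie above 2-fold in S100A8 cells, GAS2L3 above it in C1Q cells, and GAS2L3 and LBR below it in globin cells.

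Of the members past 2-fold in the gates from CD34/GATA2 to globin, all were among LBR, ANLN and GAS2L3. LBR, the inner nuclear membrane protein whose loss in humans is known to give neutrophils with unlobed nuclei (Pelger-Huët anomaly), lies at chr1:225589204-225616627 on the minus strand (hg19). It had 155 CPM in S100A8 cells (146 to 164) against 70.7 CPM elsewhere, and 26.3 CPM in globin cells (22.3 to 30.8) against 77.2 CPM. In S100A8 cells LBR was 142, 171, 136 and 136 CPM in hashtags 0252, 0253, 0254 and 0255, and the remaining cells of the same hashtags had 69.3, 80.7, 62.7 and 69.7 CPM. In globin cells it was 18.8, 24.3, 35.0 and 36.0 CPM in the same order, against 76.9, 92.7, 65.7 and 71.2 CPM. The levels in the gate and outside it did not overlap between hashtags in either case.

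The LBR pattern was present in both cell cycle classes. G2/M-high S100A8 cells had 160 CPM (149 to 172) and the other S100A8 cells 144 CPM (130 to 160), whereas the corresponding globin cells had 41.6 and 12.4 CPM, and CD34/GATA2 cells 78.0 and 40.5 CPM. LBR was thus 1.11 times as high in G2/M-high as in other S100A8 cells, and 3.36 times as high in globin cells.

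ANLN encodes anillin, a scaffold of the contractile ring, and lies at chr7:36429430-36493400 on the plus strand (hg19). It had 33.8 CPM in S100A8 cells (29.8 to 38.3) against 13.3 CPM in all others. By hashtag, the S100A8 cells had 37.1, 30.4, 35.8 and 39.7 CPM, in each of which they were above the remaining cells (2.86, 2.03, 2.87 and 3.17-fold). Within G2/M-high cells alone, whose call included ANLN, S100A8 cells remained 2.35-fold higher (2.03 to 2.71), with 44.2 CPM. C1Q cells followed with 30.7 CPM in G2/M-high cells (1.55-fold, 1.26 to 1.89). ANLN was the second lowest member in CD34/GATA2 cells, at 11.1 CPM against 16.1 CPM (0.690-fold).

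GAS2L3 lies at chr12:100967461-101022066 on the plus strand (hg19) and was the member of lowest level, with 979 UMIs in all. It had 17.1 CPM in C1Q cells (14.4 to 20.1) against 6.23 CPM elsewhere, a ratio of 2.74 (2.29 to 3.27). By hashtag the C1Q cells had 14.5, 15.7, 19.1 and 19.4 CPM, and the remaining cells 5.29, 5.94, 6.55 and 7.55 CPM. These ranges did not overlap, with the limits stated for LBR. It was low in CD34/GATA2 cells, with 3.45 CPM (0.394-fold), and in globin cells, with 11 UMIs or 1.88 CPM (0.264-fold, 0.132 to 0.475). In C1Q cells GAS2L3 was high in both classes, with 23.2 CPM in G2/M-high cells (18.4 to 28.9) and 12.9 CPM in the others (10.0 to 16.4). The call of these classes included GAS2L3.

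**Figure D5:**
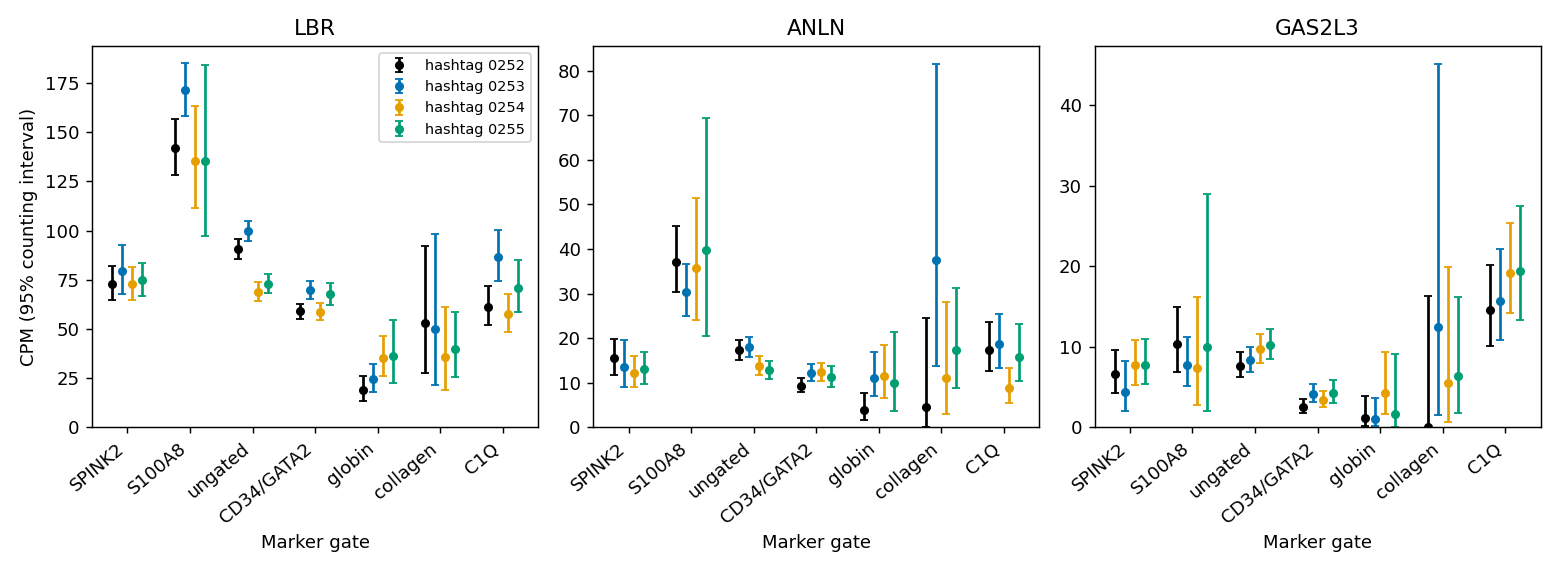
CPM of LBR, ANLN and GAS2L3 (y axes) by marker gate (x axis) and hashtag (color), with 95% counting intervals. LBR was highest in the S100A8 gate and GAS2L3 in the C1Q gate in each hashtag, and ANLN was highest in the S100A8 gate except in hashtag 0253, where 11 collagen cells had 37.5 CPM (13.7 to 81.5).

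The roles of the members were represented unevenly in the S100A8 and globin gates. In S100A8 cells the nuclear envelope genes had 1.49 times the level of the other cells (1.44 to 1.55), the cytokinesis genes 1.40 times (1.33 to 1.48) and the chromosome genes 1.28 times (1.26 to 1.30), whereas entry kinase and cyclin genes had 0.905 times (0.880 to 0.932) and anaphase ligase genes 0.920 times (0.888 to 0.954). Most of the nuclear envelope excess (357 against 239 CPM for both genes) was that of LBR, described above, and TMPO gave the rest. CKS2 was the lowest member in S100A8 cells, at 167 CPM against 238 CPM (0.700-fold), and CKS1B the next, at 190 CPM (0.817-fold). The deficit of CKS2 and CKS1B was larger than that of their whole role (665 against 734 CPM). CDK1, CCNB2, CDC25C, GTSE1 and G2E3 together were thus higher in S100A8 cells than elsewhere. In globin cells anaphase ligase genes had 1.19 times the level of other cells (1.15 to 1.23), with 539 CPM against 453 CPM. Entry kinase and cyclin genes were level there (733 CPM against 731 CPM), and the other 6 roles had from 0.577 times (nuclear envelope) to 0.842 times (spindle). UBE2C had 389 CPM in globin cells (373 to 405) against 262 CPM. This excess was larger than that of its whole role, so CDC20 and CDCA3 together were lower in globin cells. UBE2C was above the remaining cells in 4 of 4 hashtags (312 to 461 CPM in globin cells against 248 to 268). PSRC1, a spindle regulator known as a p53 target, had 30.4 CPM there (26.1 to 35.2) against 20.4 CPM, also in 4 of 4 hashtags. In G2/M-high globin cells, whose call included UBE2C, this gene reached 687 CPM, 1.73-fold the other G2/M-high cells (1.65 to 1.81).

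In C1Q cells all 8 roles were lower, from 0.755 times for the entry kinase and cyclin genes to 0.858 times for the nuclear envelope genes. CKS2 was the lowest member, at 145 CPM against 241 CPM (0.605-fold), followed by HJURP, the chaperone of CENPA, at 14.9 CPM (0.631-fold). GTSE1, a G2 regulator of p53, was the second highest after GAS2L3, at 77.4 CPM (1.09-fold). In collagen cells the anaphase ligase genes were lowest, at 0.425 times (0.376 to 0.480).

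Between hashtags the members differed little. They had 5513 CPM in the 2136 cells of hashtag 0252, 5772 in the 1996 cells of 0253, 5463 in the 1847 cells of 0254 and 5849 in the 1571 cells of 0255. Each hashtag thus lay within 5% of the other 3, with ratios of 0.969, 1.03, 0.959 and 1.05. With the limit of 10% mitochondrial UMIs, which kept only a small part of the cells, the log2 ratio of hashtag 0255 turned from 0.067 to -0.028. The G2/M-high shares were 53.1% (50.9 to 55.2%), 57.5% (55.3 to 59.7%), 51.2% (48.9 to 53.5%) and 56.2% (53.7 to 58.7%). The intervals of 0252 overlapped with those of 0254 and 0255, and those of 0253 and 0255 overlapped. With every hashtag given the gate makeup of the pool, the shares were 53.5, 58.1, 51.7 and 55.8%, and with equal quintiles of depth they were 52.6, 56.5, 51.6 and 58.1%. At least 12 core members were present in 36.0, 38.3, 34.0 and 35.5% of cells. At least 16 were present in 20.6, 20.8, 20.1 and 19.9%, where 0255 was lowest and the hashtags were nearly level. Since each hashtag is 1 pool of wells, these intervals do not include differences between wells.

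The order of the hashtags differed between gates. In CD34/GATA2 cells the member level was 5456, 5878, 5222 and 5877 CPM for hashtags 0252, 0253, 0254 and 0255, with 0253 and 0255 above 0252 and 0254 as in the pool. In SPINK2 cells it was 6362, 5242, 6264 and 6614 CPM, with 0253 lowest and below the 5772 CPM of all cells of that hashtag. In C1Q cells it was 4178, 5368, 4516 and 4592 CPM, with 0253 highest. Globin cells had 4063, 4894, 5765 and 5821 CPM, and their G2/M-high shares were 31.5% of 89 cells, 46.1% of 102 and 58.5% of 65 in hashtags 0252 to 0254, with 15 of 30 cells in 0255. The globin level was below that of all cells of the hashtag in 0252 and 0253 (5513 and 5772 CPM). It was above that level in 0254 (5463 CPM) and near it in 0255 (5849 CPM). S100A8 cells had the smallest range, from 5953 CPM in the 46 cells of 0254 to 6451 CPM in the 188 cells of 0252. In collagen cells, of which hashtags 0252 and 0253 had 11 each, 0254 had 17 and 0255 had 52, the level ran from 2577 CPM in 0255 to 6244 CPM in 0253. In 0253 it was above that of all cells of the hashtag.

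With a limit of 25% above or 20% below the other hashtags, 1 member passed in 3 of the 4 hashtags. In hashtag 0252 it was GAS2L3 (0.799-fold, lower, as were 2.75% of genes tested, with 3.42% higher). In hashtag 0253 it was LBR at 89.2 CPM (1.28-fold, higher, as were 3.26% of genes, with 2.90% lower), followed by ANLN at 16.4 CPM (1.21-fold). No member passed in 0254 (1.53% of genes higher, 3.69% lower), where LBR was lowest at 64.5 CPM (0.820-fold) and GAS2L3 highest (1.11-fold). In hashtag 0255 GAS2L3 passed with 8.24 CPM (1.26-fold, higher, as were 3.42% of genes, with 5.27% lower), and ANLN was lowest with 12.8 CPM (0.868-fold). A single member is 1.92% of the 52, which is below the share of genes tested in each of these directions. The S100A8 gate, where LBR and ANLN were high, had 188, 228, 46 and 17 cells in the 4 hashtags, and its part in the levels by hashtag was not tested. Outside this gate, LBR had 80.7 CPM in 0253 and 62.7 CPM in 0254, and 69.3 and 69.7 CPM in 0252 and 0255.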

How the data were processed

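The authors aligned the reads of 1 droplet library (10x Chromium 3′ chemistry) to hg19 with Cell Ranger 6.0.1, per the labels, and deposited a matrix of raw UMI counts, without normalization, for 32738 genes and 4 hashtags. It held 10836 barcodes, each with a hashtag call. Barcodes called for several hashtags (1339) or for none (1009), 397 cells over the study's limits on UMIs or genes and 541 further cells over its limit on mitochondrial share were left out, which retained 7550 cells. No doublet caller was applied in the values reported, and Scrublet, which marked 99 of 8488 cells, served as an alternative.

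UMIs were summed over cells and scaled to CPM without pseudocount, with exact Poisson intervals, exact Clopper-Pearson intervals for shares and exact conditional intervals for ratios, all at 95%. Central cells had 9115 to 30333 UMIs (5th to 95th percentile). Genes with at least 5 CPM in the pool (9737) were compared, with calls at 2-fold for gates and at 25% above or 20% below for hashtags. Thinning used a fixed seed. A cell in several gates was set apart, except that ELANE with S100A8 went to S100A8. The genes named are the 2 highest of each role, the 2 highest and 2 lowest ratios of each comparison, and the 10 highest non-members of at least 20 CPM. The 10 lowest non-members and PIF1 were chosen after their values were seen. Members, lists and gates were chosen with earlier results of these data known. Positions are from an hg19 annotation matched by Ensembl identifier, promoters from RefSeq. Steps were tested on simulated data. The software was scanpy 1.11.5, matplotlib 3.10.9, scipy 1.17.1, numpy 2.4.6 and pandas 2.3.3 on Python 3.11.15. The alternatives were other thinning depths, seeds, core limits, cell filters, gate limits, folds and totals. Those added after seeing the data were a limit of 16 core members, overlapping gates, and shares weighted to quintiles of depth or to the gate makeup of the pool.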

Additional observations from a re-analysis of the deposited data

Results flagged for a closer look

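Barcodes that entered none of the comparisons above also carried members. Of barcodes called for several hashtags, 65.6% of 1319 were G2/M-high (62.9 to 68.1%), and 59.2% of those within the limits on UMIs, genes and mitochondrial share were. Their median was 27367 UMIs. Of barcodes without a hashtag call, 41.6% of 875 were G2/M-high (38.3 to 44.9%), with 4444 member CPM. The 397 cells above 36000 UMIs or 6000 genes had the highest share, 84.1% (80.2 to 87.6%), with 7274 member CPM, beside 83.5% in the deepest quintile of the cells kept. Cells above the mitochondrial limit had 19.2% (15.1 to 23.9%), with 2225 member CPM, beside 25.8% in the highest quintile of mitochondrial share among the cells kept. Each was singled out because the mitosis genes were present in data the comparisons do not use. No cause was tested.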

How the results depend on the processing

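No paired analysis was possible because the series is 1 library without replicates, and with 1 library no spread between replicates is known, so a value below is set only against the counting interval of the value reported. Depth limits single members in the ELANE, PF4/PPBP and collagen gates. The G2/M-high share of all cells (54.4%) was 37.8% after thinning to 3000 UMIs, 67.5% after thinning to 8000, 69.8, 36.0 and 20.4% with at least 5, 12 and 16 core members, 43.0% by scanpy's G2M phase call, 55.9% without an upper limit on UMIs or genes and 66.8% with a limit of 10% mitochondrial UMIs. The 10% limit kept only a small part of the cells, here and in the values below. Summed member CPM (5639) was 5812 without the upper limit, 6687 with 10% mitochondrial UMIs, 5154 as a mean over cells, 6475 of nonmitochondrial UMIs and 3322 for core members alone. For the log2 ratio of member CPM, reported as -0.024 for the CD34/GATA2, 0.17 for the SPINK2, -0.30 for the C1Q, 0.18 for the S100A8, -0.20 for the globin and -0.82 for the collagen gate and as -0.045, 0.047, -0.060 and 0.067 for hashtags 0252 to 0255, the cause of each change was not tested. Without the upper limit it was 0.031 for CD34/GATA2 (turned), 0.15 for S100A8, -0.22 for globin, -0.91 for collagen, -0.058 for 0252 and 0.054 for 0253. With 10% mitochondrial UMIs it was 0.20 for CD34/GATA2 (turned), 0.15 for SPINK2, -0.73 for C1Q, 0.091 for S100A8, -0.66 for globin, -1.10 for collagen, -0.073 for 0252, 0.12 for 0253, -0.031 for 0254 and -0.028 for 0255 (turned). As means over cells it was -0.031 for CD34/GATA2, 0.21 for SPINK2, -0.40 for C1Q, -0.14 for globin, -0.57 for collagen, -0.052 for 0252, 0.075 for 0253 and -0.078 for 0254. Of nonmitochondrial UMIs it was -0.0068 for CD34/GATA2, 0.14 for S100A8 and -0.88 for collagen. For core members alone it was 0.0083 for CD34/GATA2 (turned), -0.28 for C1Q, -0.13 for globin and -0.91 for collagen. With gate limits at 0.5 times it was -0.061 for CD34/GATA2, -0.16 for C1Q, 0.16 for S100A8, -0.093 for globin and -0.65 for collagen, and at 2 times -0.0036, -0.41, 0.22, -0.30 and -0.93 in the same order. With overlapping gates it was 0.13 for S100A8 and -0.30 for globin. Within the SPINK2 gate it was 0.036 for 0252, -0.29 for 0253 and 0.0056 for 0254 (all turned) and 0.12 for 0255. Within the C1Q gate it was -0.21 for 0252, 0.28 for 0253 and -0.019 for 0255 (turned). Within the S100A8 gate it was 0.036 for 0252 (turned), 0.0035 for 0253, -0.10 for 0254 and 0.016 for 0255. Within the globin gate it was -0.39 for 0252, -0.018 for 0253 and 0.30 for 0254 (both turned) and 0.27 for 0255. Within the collagen gate it was 0.018 for 0252 (turned), 1.16 for 0253, -0.17 for 0254 and -0.53 for 0255 (turned). Within the CD34/GATA2 gate it was 0.10 for 0253, -0.13 for 0254 and 0.091 for 0255. With each hashtag left out in turn, it ran from -0.047 to 0.0035 for CD34/GATA2 (turned without 0254), 0.14 to 0.23 for SPINK2, -0.36 to -0.25 for C1Q, 0.15 to 0.20 for S100A8, -0.30 to -0.094 for globin (-0.094 without 0252), -1.0 to -0.59 for collagen, and -1.59 to 0.21 for the 7 PF4/PPBP cells (turned without 0253). At 1.5-fold, 3 members passed in the C1Q, 5 in the S100A8, 6 in the globin and 38 in the collagen gate, beside 34.3, 26.3, 24.9 and 45.8% of all genes tested, and 0 in hashtags 0252, 0253 and 0255, beside 2.06, 2.00 and 3.14%. Apart from the CD34/GATA2 and PF4/PPBP gates, no ratio of a gate changed sign under any alternative. Gate levels within a single hashtag, given above, were not among these alternatives. There the direction turned for SPINK2 and collagen cells in 0253 and for globin cells in 0254.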

Other observations

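Genes of other cell cycle phases moved with the gates beside the members. In C1Q cells 9 of 40 S-phase genes were at least 2-fold lower than in other cells, as were 9.29% of genes tested, and none was 2-fold higher, with a median log2 ratio of -0.81. Of 8 genes of G1 cyclins, their kinases and E2F1, 6 were at least 2-fold lower there (CCND1, CCND2, CCNE1, CDK4, CDK6 and E2F1, median log2 ratio -1.26). Of 7 kinase inhibitors and pocket proteins tested, CDKN1A (66.5 against 12.6 CPM) and RB1, the retinoblastoma protein (52.8 against 19.9 CPM), were at least 2-fold higher and CDKN2D was lower. Of all genes tested, 6.17% were at least 2-fold higher in C1Q cells.

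In globin cells, the D-type cyclin CCND3 had 469 CPM against 147 CPM in other cells (3.19-fold) and CCND1 43.2 against 12.2 CPM, beside 3.49% of genes tested that were at least 2-fold higher. Of the 7 inhibitors and pocket proteins tested, 2 were at least 2-fold higher there and none was 2-fold lower (median log2 ratio -0.15). These were CDKN2D with 130 against 17.5 CPM (7.41-fold) and CDKN1C with 390 against 126 CPM (3.09-fold). In SPINK2 cells 3 of the 7 were at least 2-fold lower and none was higher, with 6.71 against 23.9 CPM for CDKN2D, 40.5 against 148 CPM for CDKN1C and 8.30 against 16.7 CPM for CDKN1A, and 4.38% of genes tested were at least 2-fold lower there. CD34/GATA2 cells had 206 against 99.9 CPM of CDKN1C, the 1 of the 7 that was at least 2-fold higher there, and CDKN1A was at least 2-fold lower. Of all genes tested, 1.36% were higher and 4.54% lower in that gate. The genes in these paragraphs are a part of those past 2-fold and were chosen after their values were seen.

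In collagen cells 33 of 40 S-phase genes and 27 of 56 other G2/M genes were at least 2-fold lower, against 15.8% of genes tested. Their median log2 ratios were -1.27 and -0.96, beside -0.83 for the 52 members. CCND1 had 555 CPM there against 8.18 CPM elsewhere, and CDKN1A 211 against 13.9 CPM. Each was the only gene of its list at least 2-fold higher, and 1 gene of each list was lower. Of all genes tested, 8.84% were at least 2-fold higher in collagen cells.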
